A study of Mus musculus with 7 samples.

Results

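Cytosolic ribosomal proteins are the protein subunits of the ribosome that translates nuclear-encoded mRNAs. The genes described here were all rows of the gene table that are annotated as protein-coding and carry the symbol of such a subunit, that is Rpl or Rps followed by a number, the stalk genes Rplp0, Rplp1 and Rplp2, and Rpsa. This naming rule gave 85 genes of 46671, of which 53 belong to the large subunit and 32 to the small subunit. Values were available for 4 libraries in which Stk24, the gene of the protein kinase MST3, had been knocked out in intestinal epithelial cells (cKO), and for 3 wild-type libraries (Ctrl). All mice were BALB/C of 8 weeks. The treatment label states for both groups that no drug was given, whereas the design text names AOM and DSS, a carcinogen and a colitis-inducing agent. The labels do not name the Cre driver or other alleles, and they name no cells other than epithelium as knocked out. The design text speaks of littermates, but the labels do not state that the libraries came from different mice, and the p-values given here reflect the variation among libraries only.

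The libraries held between 14659708 and 19659622 reads on genes. Levels are in FPKM (fragments per kilobase of gene, scaled by a factor for each library). For a gene of 1 kb, 3 reads corresponded to between 0.155 and 0.216 FPKM. The factor did not follow the reads on genes alone. These 3 reads gave 0.178 FPKM in cKO 2, with 15296948 reads on genes, and 0.216 FPKM in cKO 4, with 15617739. Stk24 stood at 2.92, 3.04, 3.85 and 3.53 FPKM in cKO 1 to 4, against 19.4, 19.4 and 21 FPKM in Ctrl 1 to 3, and it fell in cKO (log2 difference -2.42, SE 0.12, limma adjusted p = 0.00043). The tissue is labelled as colorectum. All 15 listed small intestine markers were measured at a level that could be tested, with a summed level between 27940.5 and 38612 FPKM in cKO and between 37925 and 53161 FPKM in Ctrl, whereas 4 of 10 large bowel markers reached that level, and Hoxd11, Hoxd12 and Hoxd13 were at 0 in all libraries. In such bulk samples, fewer cells of a type and less RNA per cell cannot be told apart.

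The ribosome is built in the nucleolus, where ribosomal proteins join ribosomal RNA in 2 subunits. The small subunit decodes the mRNA, and the large subunit forms the peptide bond and carries the stalk that recruits translation factors. Ribosomal protein mRNAs of mammals begin with a C followed by a run of pyrimidines, the 5′ terminal oligopyrimidine (TOP) motif, through which mTOR signalling and the protein LARP1 control their translation. Their genes have many processed pseudogenes, copies of the mRNA inserted elsewhere in the genome. In the intestine, ribosome production is known to be high in the dividing cells of the crypt.

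The annotated starts of those named and tested genes that begin with such a run are printed here, because the run is the feature by which these mRNAs are regulated together. Each line gives 20 bases before and 20 bases after the annotated transcription start of RefSeq (build GRCm38.p6), 5′ to 3′ on the gene's strand, with the pyrimidine run that opens the mRNA in capitals. The windows lie at chr11:114668560-114668599 (+) for Rpl38, chr7:141447631-141447670 (+) for Rplp2, chr7:118116128-118116167 (-) for Rps15a, chr3:90213629-90213668 (-) for Rps27 and chr4:86857348-86857387 (-) for Rps6.
Rpl38: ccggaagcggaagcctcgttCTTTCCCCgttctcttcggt
Rplp2: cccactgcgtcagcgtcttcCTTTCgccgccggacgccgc
Rps15a: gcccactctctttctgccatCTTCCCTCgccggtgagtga
Rps27: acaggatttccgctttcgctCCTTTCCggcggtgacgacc
Rps6: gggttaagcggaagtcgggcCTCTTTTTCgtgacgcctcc

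The RefSeq promoter table, which covers 250 bases before to 50 bases after the start, held 64 of the 85 genes. An annotated start at C followed by 4 bases that are each C or T was found in 14 of them (21.9%), against 813 of all 27025 genes in that table (3.01%). The motif CCGGAAG, read on both strands, was present in 26 of 64 (40.6%) against 9.93% of all genes, and it opens the Rpl38 window printed above. GGGCGG was present in 39 of 64 (60.9%) against 38.2%, and TATAA in 19 of 64 (29.7%) against 28.0%. These matches describe the windows alone. A start annotated a few bases away from the true one would be missed, so the share with a pyrimidine start is a count of annotated starts.

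A second set of sequences matters for reading the values, because a read inside a ribosomal protein mRNA can lie equally well in a pseudogene. Each pair below gives a stretch of 90 coding bases of a gene and the same stretch of the pseudogene row that held most of its pseudogene reads, from the transcripts of GENCODE M21 (GRCm38), with differing bases in capitals. Over their alignment Rpl28 (chromosome 7) and Rpl28-ps1 (chromosome 1) were identical at 414 of 414 bases, and Rpl21 (chromosome 5) and Gm12411 (chromosome 4) at 479 of 483. The stretches are coding bases 1 to 90 of Rpl28 and 176 to 265 of Rpl21.
Rpl28: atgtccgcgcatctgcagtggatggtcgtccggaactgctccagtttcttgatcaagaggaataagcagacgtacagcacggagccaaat
Rpl28-ps1: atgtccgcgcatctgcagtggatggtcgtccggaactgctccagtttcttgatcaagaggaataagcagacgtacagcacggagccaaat
Rpl21: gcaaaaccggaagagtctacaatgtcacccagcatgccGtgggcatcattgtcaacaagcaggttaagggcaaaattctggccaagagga
Gm12411: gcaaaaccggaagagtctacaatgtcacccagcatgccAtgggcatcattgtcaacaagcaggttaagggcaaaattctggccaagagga

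Most ribosomal protein genes were among the most abundant mRNAs of this epithelium. Of the 85 genes, 70 stood at a mean of at least 100 FPKM. The median level of the 81 genes that could be tested was 395 FPKM per gene, against 5.88 FPKM over all other tested genes. The 85 genes lie on 19 chromosomes, with 14 on chromosome 7 and 4 on the X chromosome, and 30 of them hold 58 small nucleolar RNA genes between their ends. Together they took 3.56%, 3.23%, 2.32% and 2.20% of the reads in cKO 1 to 4, against 3.56%, 2.70% and 2.95% in Ctrl 1 to 3. Thus cKO 1 lay close to the highest Ctrl library, and cKO 3 and cKO 4 lay below all of Ctrl.

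The level of the tested ribosomal protein genes was low in cKO 3 and cKO 4, high in Ctrl 1, and intermediate in the other libraries. Relative to the Ctrl mean of each gene, on the scale log2(FPKM + 0.5), their median stood at 0.11, -0.07, -0.45 and -0.35 in cKO 1 to 4, against 0.22, -0.14 and -0.08 in Ctrl 1 to 3. The groups therefore overlapped, with cKO 1 above Ctrl 2 and Ctrl 3, and cKO 2 above Ctrl 2 and slightly above Ctrl 3. Ctrl 1 was the highest library for 57 of the 81 genes, and cKO 3 was the lowest for 39 and cKO 4 for 18. Below the Ctrl mean lay 22 genes in cKO 1, 49 in cKO 2, 73 in cKO 3 and 71 in cKO 4.

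**Figure D1:**
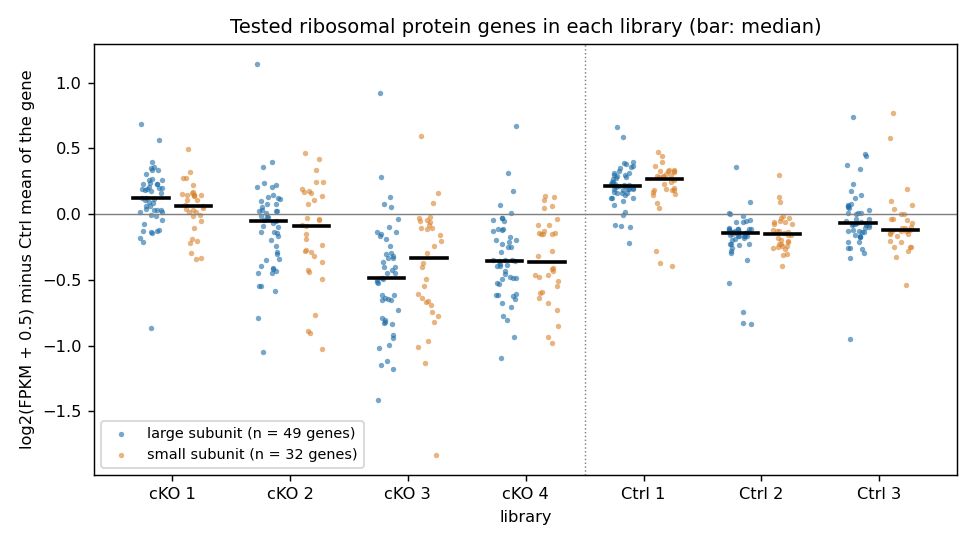
Each point is one tested ribosomal protein gene in one library, on the vertical axis its log2(FPKM + 0.5) minus the Ctrl mean of the gene, with the large subunit (49 genes) and the small subunit (32 genes) side by side and a bar at each median. The medians of both subunits are lowest in cKO 3 and cKO 4 and highest in Ctrl 1.

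The medians of both subunits were lowest in cKO 3 and cKO 4 and highest in Ctrl 1. The large subunit had medians of 0.12, -0.05, -0.49 and -0.35 in cKO 1 to 4, against 0.22, -0.14 and -0.07 in Ctrl 1 to 3. For the small subunit they were 0.06, -0.09, -0.34 and -0.36 in cKO, against 0.27, -0.15 and -0.12 in Ctrl. Across the 7 libraries a gene's values correlated with the median of the other tested ribosomal protein genes at a median Pearson r of 0.82, with 43 of 81 genes above 0.8. This is a description over 7 libraries that share their depth and scaling. Genes that went their own way were fewer, with 14 below 0.5 and 5 below 0, namely Rps27, Rpl17, Rps27l, Rpl26 and Rpl29.

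Compared between the genotypes, 65 of the 81 genes were below 0 and 16 above 0 in the log2 difference of cKO minus Ctrl, against 51.3% of all 13057 tested genes below 0. The median difference was -0.19, against -0.008 over all tested genes. None of the 81 passed an adjusted p of 0.05 in limma, where 0.0306% of all tested genes passed. Limma voom on the reads behind the values called 0 of the 80 members it covered, where 0.0139% of its 14426 genes passed. In that fit 12 members were lower and 1 higher at an unadjusted p under 0.05, against 4.26% and 4.19% of its genes. In limma on FPKM, at an unadjusted p under 0.05, there were 8 lower genes, against 4.73% of all tested genes, and 1 higher gene, against 4.24%. The libraries did not overlap, lower in cKO, for 5 genes, among them Rpl21, Rpl38, Rps28 and Rplp2, against 4.51% of all tested genes, and for 0 genes higher in cKO, against 5.62%. The count below 0 depended on the scaling, since 51 of 81 were lower and 30 higher when each library was rescaled to a common sum (TPM). Leaving out cKO 1, the cKO library with the highest median of these genes, by itself favours lower values in cKO. Of all single libraries left out, it gave the largest counts of lower genes. Without cKO 1, 21 of the 81 genes were lower at an unadjusted p under 0.05, against 5.93% of all tested genes. In that fit 1 was higher, against 4.27%, and 27 were lower without overlap, against 8.53%. None of the 81 passed the adjusted threshold there, which 0.0536% of all tested genes passed. Without Ctrl 1 the median was -0.08.

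The large subunit had 40 of 49 genes below 0 with a median of -0.19, and the small subunit 25 of 32 with a median of -0.18. Within each subunit the shorter genes had the more negative median. At lengths under the members' median of 833 bases, the median difference was -0.32 over 22 genes of the large subunit and -0.33 over 18 of the small subunit. Over longer genes it was -0.14 for 27 genes of the large subunit and -0.01 for 13 of the small subunit. The counts below 0 followed length in the small subunit only, with 16 of 18 shorter and 8 of 13 longer genes. In the large subunit they were 17 of 22 shorter and 23 of 27 longer genes. Spearman's rho between length and difference was 0.25 over the large and 0.50 over the small subunit, and 0.33 over all 81 genes. The points share the same 7 libraries, and over the other 12976 tested genes rho was 0.30.

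**Figure D2:**
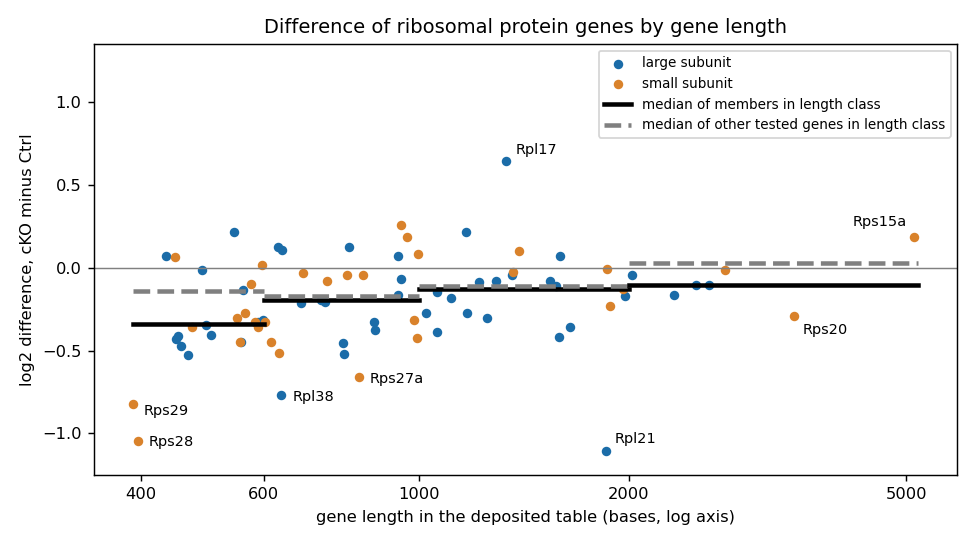
The log2 difference of cKO minus Ctrl of each tested ribosomal protein gene is plotted against the gene length in the table (bases, log axis), with colours for the subunits, and bars for the median of members (black) and of other tested genes (dashed) in 4 length classes. In the shortest class the members' median is -0.34 and that of other genes -0.14, and between 600 and 2000 bases the medians lie close together.

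Length alone set these genes apart from most of the transcriptome, with a median of 833 bases against 3154 bases over other tested genes. Up to 600 bases, 24 ribosomal protein genes had a median difference of -0.34, against -0.14 over 968 other genes. Above 600 and up to 1000 bases the medians were -0.20 over 27 genes, against -0.17 over 771 others, and above 1000 and up to 2000 bases -0.13 over 23 genes, against -0.11 over 2296 others. Above 2000 bases they were -0.10 over 7 genes and 0.03 over 8941 others. Among genes of at least 100 FPKM and at most 1000 bases, 36 of 47 ribosomal protein genes were below 0 with a median of -0.31, and 115 of 149 other genes were below 0 with a median of -0.22. No test was made of the difference between these medians.

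Libraries of lower ribosomal protein level also differed in other measured ways. Mitochondrially encoded genes took 3.71%, 5.24%, 7.39% and 7.51% of the reads in cKO 1 to 4, against 3.88%, 5.32% and 4.19% in Ctrl 1 to 3. Markers of crypt stem and cycling cells, 14 of 14 tested, had medians of 0.56, 0.35, -0.17 and -0.18 in cKO 1 to 4 relative to the Ctrl mean, against 0.17, -0.13 and -0.04 in Ctrl 1 to 3, with a summed level between 500.2 and 961 FPKM in cKO and between 614 and 776 FPKM in Ctrl. Markers of Paneth cells, 8 of 8 tested, stood at 0.38, 0.50, -1.21 and -1.40 in cKO, against -0.51, 0.03 and 0.47 in Ctrl, with a summed level between 5320.2 and 20892 FPKM in cKO and between 10037 and 30339 FPKM in Ctrl. Markers of villus enterocytes, 14 of 14 tested, stood at -0.42, -0.33, 0.20 and 0.36 in cKO, against 0.04, 0.19 and -0.10 in Ctrl, with a summed level between 21409 and 38623 FPKM in cKO and between 30860.1 and 37327 FPKM in Ctrl. Thus cKO 3 and cKO 4 were low in crypt and Paneth cell markers and high in mitochondrial reads and, by the median, in villus markers. By these medians cKO 1 and cKO 2 were the reverse in the cell markers. For villus markers the median of cKO 3 was close to that of Ctrl 2. Their summed level in cKO 3, 26534 FPKM, lay below all Ctrl libraries, and only that of cKO 4 lay above them. Markers of T cells and innate lymphoid cells, 13 of 14 tested, stood at -1.11, -0.83, -0.09 and 0.09 in cKO 1 to 4, against 0.63, -0.33 and -0.29 in Ctrl 1 to 3, with a summed level between 317 and 780.4 FPKM in cKO and between 513 and 1231 FPKM in Ctrl. Markers of B and plasma cells, 7 of 11 tested, stood at -0.10, 0.38, 0.34 and 1.43 in cKO, against 0.20, 0.42 and -0.65 in Ctrl, with a summed level between 154 and 253 FPKM in cKO and between 104 and 183 FPKM in Ctrl, and Tnfrsf17 at 0 in all libraries. T cell markers were thus lowest in cKO 1 and cKO 2, and B cell markers highest in cKO 4. The part of these differences in the ribosomal protein levels was not tested.

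Rpl21, a protein of the large subunit, had the smallest p of all ribosomal protein genes. It stood at 28.5, 25.0, 19.3 and 24.3 FPKM in cKO 1 to 4, against 60.8, 47.0 and 50 FPKM in Ctrl 1 to 3. The highest cKO library was well below the lowest Ctrl library. The means were 24.3 ± 3.79 FPKM in cKO (SD, n = 4) and 52.6 ± 7.27 FPKM in Ctrl (SD, n = 3), a log2 difference of -1.10 (SE 0.16) with a limma adjusted p of 0.161. Over the alternatives tried, the difference lay between -1.18 and -0.97 and the adjusted p between 0.065 and 0.620. The gene lies on chromosome 5 from 146769700 to 146773842 (plus strand, as the table gives it on GRCm39). Of the reads on Rpl21 and its 21 annotated pseudogenes together, 23.2%, 14.6%, 16.0% and 17.9% were listed at pseudogenes in cKO 1 to 4, against 4.78%, 11.2% and 13.3% in Ctrl 1 to 3. Added together, gene and pseudogenes stood at 37.2, 29.3, 23.0 and 29.6 FPKM in cKO, against 63.9, 52.9 and 57.7 FPKM in Ctrl, with a log2 difference of -0.97 (limma adjusted p = 0.316), and the groups again did not overlap.

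In Rpl38 and Rps28 the groups also did not overlap. This held for 5 of the 81 genes, against 4.51% of all tested genes, and the count depended on the scaling. Rpl38, a small protein of the large subunit whose loss in mice gives skeletal patterning defects, stood at 201, 131, 100.2 and 119 FPKM in cKO 1 to 4, against 213, 207 and 267 FPKM in Ctrl 1 to 3. cKO 1 was close to the Ctrl libraries and the other cKO libraries were well below them. The log2 difference was -0.77 (SE 0.24, limma adjusted p = 0.511). Rps28, a protein near the mRNA exit of the small subunit, stood at 211, 131, 74.8 and 136 FPKM in cKO, against 221, 217 and 401 FPKM in Ctrl. Here too cKO 1 was close to Ctrl 1 and Ctrl 2, and Ctrl 3 was far above the rest. The log2 difference was -1.05 (SE 0.36, limma adjusted p = 0.516). Rps28 had 27.6% of its family's reads on pseudogenes, and gene and pseudogenes together gave -0.87 with overlapping groups, since cKO 1 then stood at 289 FPKM, against 283 FPKM in Ctrl 1 and 277 FPKM in Ctrl 2.

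Rps28 and Rps29 are the shortest of the tested genes, with 396 and 390 bases. Rps29, a zinc-binding protein of the small subunit, stood at 423, 287, 242 and 279 FPKM in cKO 1 to 4, against 410.2, 404 and 909 FPKM in Ctrl 1 to 3. As with Rps28, Ctrl 3 was far above the other libraries, and the groups overlapped through cKO 1. The log2 difference was -0.82 (SE 0.33, limma adjusted p = 0.542). It was -0.44 without Ctrl 3. At the other end of length, Rps15a (5136 bases in the table) stood at 59.9, 58.9, 55.5 and 51.8 FPKM in cKO, against 60.4, 44.3 and 45.3 FPKM in Ctrl, with a log2 difference of 0.19 (limma adjusted p = 0.706). Rps20 (3446 bases) had a log2 difference of -0.29 (limma adjusted p = 0.719).

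**Figure D3:**
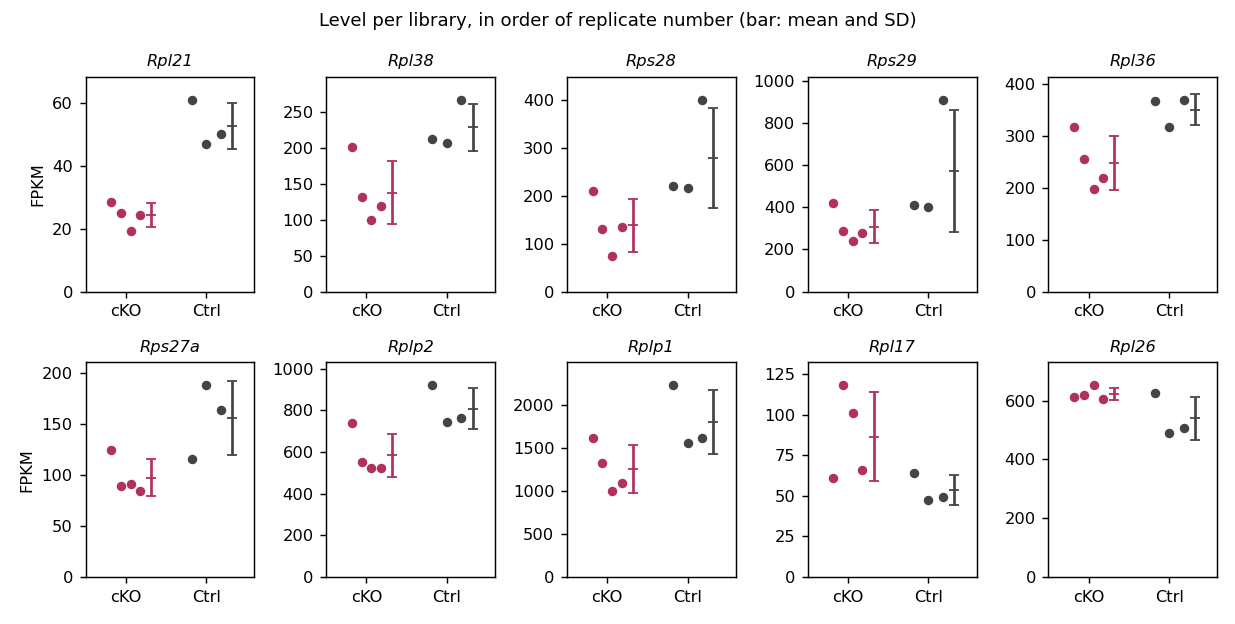
FPKM of 10 ribosomal protein genes in each library, with points in order of replicate number, cKO left of Ctrl, and a bar for the mean and SD of each group (4 cKO, 3 Ctrl), each panel on its own linear axis from 0. In Rpl21 the groups are far apart, in Rpl38, Rps28, Rps29 and Rpl36 cKO 1 stands highest among the cKO libraries, and in Rpl17 the order is the other way.

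Further genes at an unadjusted p under 0.05 on the lower side were Rpl36, Rps27a and Rplp2. Rps27a, which is made as a fusion with ubiquitin, stood at 125, 89.7, 91.2 and 84.5 FPKM in cKO, against 116, 188 and 163 FPKM in Ctrl, so that cKO 1 lay above Ctrl 1. Its log2 difference was -0.66 (SE 0.21, limma adjusted p = 0.511). Rpl36 of the large subunit had a log2 difference of -0.52 (SE 0.19, limma adjusted p = 0.521), with cKO 1 at the level of Ctrl 2.

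The stalk of the large subunit consists of the scaffold protein P0 (Rplp0) and the acidic proteins P1 and P2 (Rplp1, Rplp2), which bind elongation factors. Rplp2 stood at 740.0, 551, 525 and 524 FPKM in cKO 1 to 4, against 920.3, 742 and 763 FPKM in Ctrl 1 to 3. The gap between cKO 1 and Ctrl 2 was small. Its log2 difference was -0.48 (SE 0.19, limma adjusted p = 0.542). Rplp1, the most abundant of all ribosomal protein mRNAs here, stood at 1618, 1319.7, 999.7 and 1088 FPKM in cKO, against 2225, 1557 and 1618 FPKM in Ctrl, with overlapping groups. Its log2 difference was -0.52 (SE 0.25, limma adjusted p = 0.585). Rplp0 stood at 1110.4, 963, 802 and 827 FPKM in cKO, against 1168, 809.9 and 899 FPKM in Ctrl. With a log2 difference of -0.05 (limma adjusted p = 0.964) it had no clear direction, and that value was 0.04 after rescaling to TPM.

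Rpl41 and Rps26 were the next most abundant. Rpl41, which encodes a very short basic peptide, averaged 1211 ± 269 FPKM in cKO (SD, n = 4) and 1608 ± 168 FPKM in Ctrl (SD, n = 3), with a log2 difference of -0.43 (limma adjusted p = 0.627). Rps26, which lies at the mRNA exit of the small subunit, averaged 1083 ± 76.1 FPKM in cKO and 1044 ± 195 FPKM in Ctrl, with a log2 difference of 0.07 (limma adjusted p = 0.939). The ranges of the groups overlapped for both.

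Proteins with known roles outside or around the ribosome did not pass the test. Rpl5 and Rpl11 form the 5S particle with 5S ribosomal RNA, which can bind MDM2 and stabilise p53. Rpl11 stood at 234, 171, 108 and 136 FPKM in cKO 1 to 4, against 238, 177 and 217 FPKM in Ctrl 1 to 3, a log2 difference of -0.42 (limma adjusted p = 0.662). Rpl5 averaged 266 ± 49.3 FPKM in cKO (SD, n = 4) and 271 ± 27.8 FPKM in Ctrl (SD, n = 3), a difference of -0.04 (limma adjusted p = 0.958) whose sign changed with TPM (0.04). In each gene cKO 1 lay at or above the Ctrl mean and cKO 3 and cKO 4 lay below all Ctrl libraries. Rps6, the target of S6 kinase, averaged 422 ± 53.8 FPKM in cKO and 397 ± 75.7 FPKM in Ctrl, with a difference of 0.10 (limma adjusted p = 0.902). Rps19, which is mutated in Diamond-Blackfan anaemia in humans, averaged 284 ± 63.1 FPKM in cKO and 351 ± 70.3 FPKM in Ctrl, with a difference of -0.31 (limma adjusted p = 0.690). Rpsa, which is also known as a laminin receptor, had a difference of -0.01 (limma adjusted p = 0.992), which was 0.08 with TPM.

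Higher values in cKO were led by Rpl17 and Rps3a1, and for both the reads were divided with pseudogenes in a way that differed between libraries. Rpl17, on chromosome 18, stood at 60.9, 118, 101 and 66.1 FPKM in cKO 1 to 4, against 63.9, 47.3 and 49.3 FPKM in Ctrl 1 to 3. cKO 2 and cKO 3 were far above Ctrl, and cKO 1 lay below Ctrl 1. The log2 difference was 0.64 (SE 0.25, limma adjusted p = 0.542). Pseudogenes held 81.7%, 61.8%, 67.5% and 73.3% of the family's reads in cKO, against 80.9%, 81.01% and 77.4% in Ctrl. Gene and 40 pseudogenes together gave a log2 difference of 0.18 (limma adjusted p = 0.794). Rps3a1, of the small subunit, stood at 746, 708, 520.1 and 583 FPKM in cKO, against 720.2, 566 and 365 FPKM in Ctrl, a log2 difference of 0.26 (limma adjusted p = 0.792) that was -0.01 without Ctrl 3. In Ctrl 3 alone the pseudogene row Rps3a3 on chromosome 13 stood at 118 FPKM, against 1.43 to 3.98 FPKM in cKO and 1.93 to 2.09 FPKM in the other Ctrl libraries. With the pseudogenes added, the difference of Rps3a1 was 0.07.

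Rpl30 had the same kind of library. The gene stood at 325, 291, 278 and 258 FPKM in cKO 1 to 4, against 396, 338 and 136 FPKM in Ctrl 1 to 3, so that Ctrl 3 alone was low. Its pseudogene row Gm12191 on chromosome 11 stood at 20.6, 10.8, 8.80 and 19.9 FPKM in cKO, against 9.14, 10.8 and 124 FPKM in Ctrl. The log2 difference of the gene was 0.12, and that of gene and pseudogenes together was -0.11 (limma adjusted p = 0.892). Rpl28 was the extreme case, with between 1 and 12 reads per library on the gene and 98.7% of its family's reads on pseudogenes. Its identical copy Rpl28-ps1 stood at 46.9, 36.6, 25.96 and 30.0 FPKM in cKO, against 60.5, 42.7 and 44.2 FPKM in Ctrl. The value listed for Rpl28 itself thus rests on few reads. Together the family stood at 49.9, 40.3, 29.8 and 33.2 FPKM in cKO, against 63.8, 44.9 and 52.2 FPKM in Ctrl, a log2 difference of -0.49 (limma adjusted p = 0.537).

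**Figure D4:**
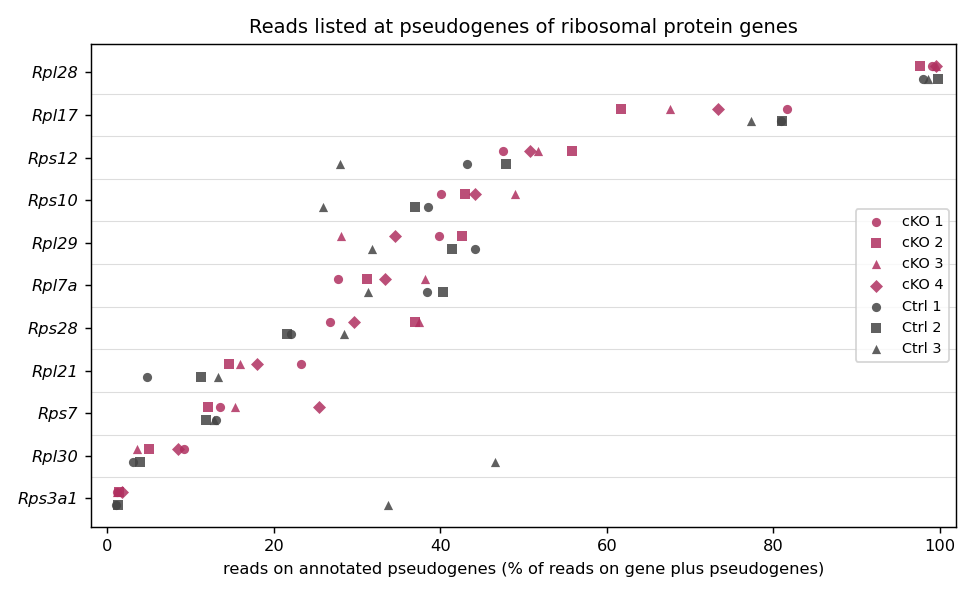
For 11 ribosomal protein genes, each point gives in one library the share of reads listed at annotated pseudogenes (% of reads on gene plus pseudogenes), with cKO libraries above Ctrl libraries in each row and one symbol per replicate number. The shares of Rpl30 (46.6%) and Rps3a1 (33.8%) in Ctrl 3 and of Rps7 in cKO 4 (25.4%) stand above the other libraries. Those of Rps12 (27.9%) and Rps10 (25.9%) in Ctrl 3 stand below the other libraries.

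Across the family as a whole, 904 rows of the table were annotated as pseudogenes of 75 of the 85 genes, and they held 6.51% of the reads on genes and pseudogenes. The share was above 10% for 20 genes and below 5% for 57. When the reads of each gene and its pseudogenes were added, again 65 of 81 were below 0 and 16 above 0, with a median of -0.18. Then 9 were lower and 0 higher at an unadjusted p under 0.05, against 4.73% and 4.28% of the 12899 features of that fit, and none passed the adjusted threshold, which 0.031% passed. Sums moved the log2 difference by more than 0.1 for 8 genes, namely Rps3a1, Rps10, Rps12, Rpl30, Rps28, Rpl17, Rpl21 and Rpl28. These genes and the pairs shown in the plot of pseudogene shares were chosen after their values were seen.

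Paralogs that share their name with another member gave no called difference either. Rpl22l1, which is known to replace and be repressed by its paralog Rpl22, stood at 98.6, 63.5, 65.1 and 53.1 FPKM in cKO 1 to 4, against 107, 99.6 and 75.8 FPKM in Ctrl 1 to 3. Only cKO 1 reached into the Ctrl range. The log2 difference was -0.45 (SE 0.22, limma adjusted p = 0.593), and that of Rpl22 was -0.11 (limma adjusted p = 0.859). Rps27l, which is known as a p53 target, stood at 37.4 ± 2.76 FPKM in cKO (SD, n = 4) and 37.8 ± 4.79 FPKM in Ctrl (SD, n = 3). Rps27 itself stood at 271, 167, 471 and 337 FPKM in cKO, against 356, 266 and 320.0 FPKM in Ctrl. It was highest in cKO 3, the library in which the median of the ribosomal protein genes was lowest, and its log2 difference was -0.10 (SE 0.33, limma adjusted p = 0.946). The other pairs had differences of -0.07 for Rpl6l and -0.11 for Rpl6, and of -0.10 for Rpl7l1 and 0.07 for Rpl7. The log2 difference was -0.40 for Rpl32, 0.07 for Rpl39, -0.08 for Rpl3 and 0.13 for Rpl10, with limma adjusted p between 0.684 and 0.932 over these 4 genes.

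The paralogs of these last 4 genes were too low to be tested with the others. Rpl32l had 10, 5, 0 and 2 reads in cKO 1 to 4, against 4, 1 and 3 reads in Ctrl 1 to 3 (exact 2-sided permutation p = 0.629). Rpl39l, known in mice for its role in sperm, had 3 reads in cKO 4 and none elsewhere, and Rpl3l, the form of muscle, had 1 read in cKO 2 and 1 in Ctrl 3. Rpl10l, a form of the testis, was listed at 0 in all 7 libraries. A count of 0 allows up to 3 reads, so these 3 genes were at or below the limit of detection, and for 4 against 3 libraries the smallest possible p is 0.0571.

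Other genes of the translation machinery were described beside them by lists. Mitochondrial ribosomal proteins, which serve the separate ribosome of the mitochondrion, were below 0 in 57 of 78 genes with a median of -0.12, and their medians stood at 0.01, -0.18, -0.20 and -0.04 in cKO 1 to 4, against 0.10, -0.01 and -0.09 in Ctrl 1 to 3. Elongation factors and other genes with TOP mRNAs were below 0 in 14 of 22 with a median of -0.07, and their library medians of 0.17, 0.07, -0.29 and -0.18 in cKO, against 0.22, -0.10 and -0.12 in Ctrl, had the same order as those of the ribosomal proteins in cKO. Ribosome biogenesis genes were below 0 in 30 of 45 with a median of -0.08, at 0.20, 0.08, -0.29 and -0.18 in cKO, against 0.12, -0.20 and 0.08 in Ctrl. Initiation factors were below 0 in 10 of 24 and above 0 in 14, with a median of 0.07, and regulators of TOP mRNAs and growth signalling were below 0 in 7 of 20 and above 0 in 13, with a median of 0.03. No gene of these lists passed the adjusted threshold.

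**Figure D5:**
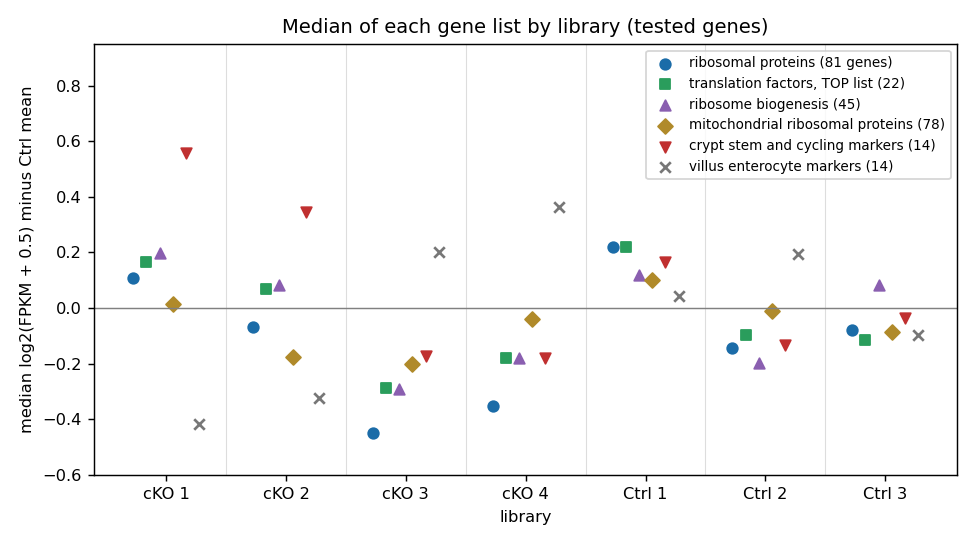
Median of log2(FPKM + 0.5) minus the Ctrl mean over the tested genes of 6 lists in each library. Ribosomal proteins, TOP-list factors and ribosome biogenesis genes are each lower in cKO 3 and cKO 4 than in cKO 1 and cKO 2, as are crypt markers, and villus markers run the other way.

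Named by the smallest p in each list, Eef1d, a subunit of the exchange factor of elongation, had a log2 difference of -0.36 (limma adjusted p = 0.542), Eif3e one of 0.27 and the poly(A)-binding protein gene Pabpc1 one of 0.28. Among initiation factors, Eif3j1 stood at 17.0, 15.1, 17.4 and 16.1 FPKM in cKO 1 to 4, against 11.6, 13.3 and 9.91 FPKM in Ctrl 1 to 3, without overlap (log2 difference 0.49, limma adjusted p = 0.473). Of the 24 initiation factors, 5 were higher without overlap, against 5.62% of all tested genes, and 1 was lower, against 4.51%. Eif5 had a difference of 0.31 and the cap-binding protein gene Eif4e one of 0.34. In ribosome biogenesis, the 60S export adaptor gene Nmd3 had a difference of 0.33 (limma adjusted p = 0.493), Riok2 one of 0.34 and the small nucleolar ribonucleoprotein gene Nop10 one of -0.61. The regulators Eif4ebp2, Rictor and Rps6kb1 had differences of 0.25, 0.26 and 0.23.

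What the sequences showed was set beside the differences without a test. Of the tested genes with an annotated pyrimidine start, 11 of 13 were below 0 with a median of -0.31, and of those with another annotated start 38 of 47 were below 0 with a median of -0.17. Genes with CCGGAAG in the promoter window were below 0 in 18 of 25 with a median of -0.17, and those without it in 31 of 35 with a median of -0.21. Genes with a small nucleolar RNA between their ends were below 0 in 22 of 30 with a median of -0.12, and those without in 43 of 51 with a median of -0.21. The most typical gene was Rps3, a protein of the mRNA entry of the small subunit, whose values correlated with the median of the others at 0.99 over the 7 libraries and gave 394, 334, 253 and 256 FPKM in cKO 1 to 4, against 408, 310.3 and 357 FPKM in Ctrl 1 to 3.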

How the data were processed

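RNA-seq of 4 cKO and 3 Ctrl libraries was analysed. The authors deposited 1 FPKM value per gene and library with gene lengths, symbols and biotypes; reads were aligned with HISAT2, per the submitters' processing notes, and no source used here names the counting program or annotation. Chromosome accessions in the table are those of GRCm39. FPKM times length was a whole multiple of 1 step in 100% of values (within 0.01 of a whole number), which gave the reads behind them. The deposited gene length (in bases) was taken as given.

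The test covered genes averaging 0.5 FPKM or more, on log2(FPKM + 0.5), which understates changes of low genes, with limma 3.58.1 in R 4.3.3 (lmFit, eBayes with trend, 2-sided, Benjamini-Hochberg over all 13057 genes, threshold 0.05), after a check on simulated data. Depth limits are counting error only. No pair of libraries agreed within sampling noise (lowest chi-square per degree of freedom 19.5). Members, lists and tests were chosen with earlier results of these data known. Named were Stk24, the members with the 8 smallest p, the 2 largest positive differences, the 3 highest levels, the 2 shortest and 2 longest, the stalk, Rpl5, Rpl11, Rps6, Rps19, Rpl38, Rpsa, paralog pairs, untested members, and 3 genes per translation list; others were chosen after their values were seen, and some results are not reported here. Pseudogenes were matched by the gene descriptions in the table, and sequences by gene ID (RefSeq) and symbol (GENCODE), with alignment in Biopython 1.88. For gene plus pseudogenes, reads were added and divided by the length of the gene. Alternatives were pseudocounts of 0.1 and 1, no filter, a mean of at least 1 FPKM, TPM, quantile and median-of-ratios scaling, array weights, replicate block, no variance trend, removal of the length trend, protein-coding genes only, leaving out each library and other member sets. Limma voom on recovered reads (at least 10 reads in 3 libraries) and gene plus pseudogenes were added after seeing the data.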

Additional observations from a re-analysis of the deposited data

Results flagged for a closer look

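In the group of 4 libraries, a library was looked at again where its gap to its nearest neighbour, as a share of the range of the group, was above Dixon's critical value for 4 samples at the 95% level, which chance gives in about 1 in 20 groups. Among the named members this applied to the cKO libraries of 4 genes. For Rps27a the gap was 0.833 of the range, with cKO 1 at 125 FPKM and the others between 84.5 and 91.2 FPKM. For Rplp2 it was 0.873, with cKO 1 at 740.0 FPKM and the others between 524 and 551 FPKM. For Rpl39l and Rpl3l it was 1, since in each a single cKO library had reads, 3 reads of Rpl39l in cKO 4 and 1 read of Rpl3l in cKO 2.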

How the results depend on the processing

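Of 261 settings of the summary values, 225 stayed within 1.5 times the count given or within 1 SD between libraries of the value given. Of 966 settings of 46 named genes, 914 kept the sign and the side of the adjusted threshold, whatever the size, with 51 changes of sign and 33 genes that never changed sign. The count of called genes (4) was 1 with a pseudocount of 0.1, with no filter, with a mean of at least 1 FPKM and after removal of the length trend, 2 with protein-coding genes only and with voom, and 1 to 7 leaving out each library. Members above 0 (16) numbered 30 with TPM, 31 with quantile scaling and with array weights, 32 without the length trend, and 11 to 33 leaving out each library. Members lower at an unadjusted p under 0.05 (8) numbered 4 with TPM, 3 with quantile scaling, 5 without the length trend, and 4 to 21 leaving out each library. Those without overlap (5) numbered 1 with TPM, 2 with quantile scaling, 1 without the length trend, and 5 to 27 leaving out each library. They numbered 27 without cKO 1, 14 without Ctrl 2 and 8 without Ctrl 3. Of all tested genes, 4.51% were lower without overlap when every library was used, and 8.53% when cKO 1 was left out. In limma at an unadjusted p under 0.05, lower in cKO, these shares were 4.73% and 5.93%. For the other settings of these 2 counts no share over all tested genes was counted, so they cannot be read as results about the members. The median of members lay between -0.28 and -0.08 leaving out each library, that of the large subunit between -0.28 and -0.08, of the small subunit between -0.26 and -0.08, of shorter members between -0.42 and -0.20, of longer members between -0.22 and -0.005, and rho with length between 0.29 and 0.35; rho was 0.22 after removal of the length trend. The cause of these changes was not tested.

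Several differences changed sign. With TPM, quantile scaling, array weights and removal of the length trend, Rplp0 stood at 0.042, 0.069, 0.055 and 0.071, Rpl5 at 0.044, 0.093, 0.063 and 0.033, Rpsa at 0.078, 0.064, 0.090 and 0.076, and Rpl3 at 0.010, 0.018, 0.074 and 0.028. With TPM, quantile scaling and removal of the length trend, Rpl6l stood at 0.016, 0.013 and 0.072, and Rps27l at 0.075, 0.070 and 0.025. Rps27 stood at 0.046 with quantile scaling and 0.051 without the length trend, and Rpl22 at 0.0023 and Rpl7l1 at 0.0018 with array weights. Leaving out each library, Rps3a1 ranged from -0.013 to 0.48, Rps26 from -0.058 to 0.21, Rplp0 from -0.16 to 0.10, Rpl5 from -0.15 to 0.058, Rpsa from -0.11 to 0.16, Rpl10 from -0.041 to 0.30, Rpl3 from -0.19 to 0.037, Rpl6l from -0.20 to 0.055, Rpl6 from -0.24 to 0.049, Rps27l from -0.12 to 0.054 and Rps27 from -0.33 to 0.17.

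Replicate numbers are those of the sample titles, which restart in each group. The column headers of the deposited values share no number between the groups. Same-numbered libraries deviated together at r of 0.115, -0.087 and -0.129, and the numbers were not taken to pair them. With the number as a block, which leaves out cKO 4, 0 genes were called, 1 member was lower at an unadjusted p under 0.05, Stk24 stood at -2.44 (limma adjusted p = 0.137), and Rplp0, Rpl5, Rpsa and Rpl3 stood at 0.0037, 0.058, 0.033 and 0.015. The share of all tested genes at that unadjusted p was not counted for the block fit. With 4 and 3 libraries of unequal ribosomal protein level within each group, differences of the size of the members' median are within the spread between libraries (SD 0.23 of the median).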
